A study of Mus musculus with 4 samples.

Results

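Mfsd2a (ENSMUSG00000028655) encodes a membrane transporter of the major facilitator superfamily. It was followed as 1 gene of the 32227 in the feature lists, in all 4 single-cell libraries of a study of the neonatal mouse intestine. It was picked because its level differed between jejunum and ileum in these same libraries, so its levels by region and by cell class are given as a description, with no test. Epithelium came from wild-type mice at postnatal day 6, and a piece of jejunum and a piece of ileum were taken from each of 2 mice. Both libraries numbered 1 come from a mouse that the labels call male and place in batch 1, and both numbered 2 from a mouse they call female and place in batch 2. Each replicate is thus 1 mouse, and effects of mouse, labelled sex and batch cannot be told apart. No cells were sorted, no transgene was used, and the epithelium was released with EDTA and dispase before cells were captured with PIPseq, a method that barcodes single cells in emulsion droplets.

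The Mfsd2a protein is a sodium-dependent symporter that brings lysophosphatidylcholine, a phospholipid with a single fatty acyl chain, across the plasma membrane. It is best known from the blood-brain barrier, where it carries the omega-3 fatty acid docosahexaenoic acid into the brain as its lysophosphatidylcholine ester and restrains caveolar transcytosis in the endothelium. In the liver its gene is induced by fasting through the nuclear receptor PPAR alpha. Enterocytes of the suckling intestine take up the products of milk fat and milk phospholipid digestion, re-esterify them, and export them in chylomicrons.

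The promoter of Mfsd2a is shown because the gene was very low in the ileum and abundant in the jejunum. RefSeq places it on the minus strand of chromosome 4, and the 250 bases before the start lie at chr4:122961189-122961438 of GRCm38.p6, written here 5′ to 3′ with 2 matched motifs in capitals.
Mfsd2a promoter: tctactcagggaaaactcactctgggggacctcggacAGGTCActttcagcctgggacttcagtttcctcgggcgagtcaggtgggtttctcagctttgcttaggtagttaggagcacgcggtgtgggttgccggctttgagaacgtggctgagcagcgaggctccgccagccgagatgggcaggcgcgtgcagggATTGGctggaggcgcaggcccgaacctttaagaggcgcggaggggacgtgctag
The first match is AGGTCA, the hexamer that nuclear receptors such as PPAR alpha and Hnf4a recognize, and it begins 213 bases before the start. The second, ATTGG, is CCAAT on the opposite strand and begins 54 bases before the start. Searched on both strands in the same window, AGGTCA stood in 14.0% of the 32851 mouse promoters of the table and CCAAT in 33.8%. The TATA box (TATAAA) had no match in this window and stood in 12.4% of all promoters. The GC box (GGGCGG), held by 32.7% of promoters, and the E box (CACGTG), held by 6.02%, had none either. The GC content of the window was 61.6%, against a median of 52.4%. These are matches of letters only.

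The 4 libraries held 57951874 to 131400239 unique molecular identifiers (UMIs, barcodes that each stand for 1 captured RNA molecule) in 7539 to 10001 called cells. After the study's limits on genes and mitochondrial share, 30521 cells remained, 14719 of jejunum and 15802 of ileum. Jejunal cells were shallower, with medians of 4690 and 5884 UMIs against 12048 and 10916 in the ileum, and had a higher median mitochondrial share, 6.37% and 9.94% against 3.61% and 3.74%. Any pair of libraries had at most 1 cell barcode in common. Sex-linked genes went against the labels in all 4 libraries: Xist, which is expressed from the inactive X chromosome, was at 537 and 467 CPM (UMIs of a gene per 1000000 UMIs) in the libraries called male, and 0.712 and 0.984 CPM in those called female, while the Y-linked Eif2s3y had the opposite pattern. The libraries are therefore called replicates 1 and 2, and no direction is drawn from the labelled sex.

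Cells were classed by clusters and by marker genes, with Mfsd2a kept out of the clustering. Of the 23 clusters, 17 were enterocyte-like, with high Apoa1, Apoa4, Fabp2 and other markers of absorptive cells, and they held 90.4% and 85.7% of the jejunal cells of replicates 1 and 2. The rest were stem/progenitor-like, enteroendocrine-like, immune-like and goblet-like cells and 1 cluster of 949 cells that stayed unnamed. The goblet-like cluster, of 23 cells, also carried Paneth cell markers. The immune-like cluster, of 147 cells, was mixed as well. It passed the marker limits for 11 stem/progenitor markers beside 8 immune ones, and 12 enterocyte markers met the detection limit of enterocyte-like clusters. It was named by its leading genes, and whether its Mfsd2a UMIs come from immune cells alone was not tested.

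In enterocyte-like cells Mfsd2a was a jejunal transcript. Its UMIs, summed over the class and scaled to CPM, came to 144.6 CPM in jejunum replicate 1 and 505.7 CPM in jejunum replicate 2. In the ileum it came to 0.615 CPM in replicate 1 and 0.636 CPM in replicate 2. Both jejunal libraries lay far above both ileal ones, with no overlap, and the intervals of the ileal libraries overlapped. The ileal values rest on 51 and 58 UMIs (exact 95% Poisson intervals 0.458 to 0.808 and 0.483 to 0.822 CPM), the jejunal values on 7878 and 21008. The means were 325 ± 255 CPM in the jejunum and 0.625 ± 0.0148 CPM in the ileum (SD, n = 2 each). Within each mouse the jejunal level was 235-fold and 795-fold the ileal level. Intervals cover counting error only.

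The share of cells with the transcript differed in the same direction. At least 1 Mfsd2a UMI was seen in 41.0% of 8135 enterocyte-like cells in jejunum replicate 1 and in 85.6% of 4903 in replicate 2 (exact binomial 95% intervals 39.9 to 42.0% and 84.6 to 86.6%). In the ileum, whose cells were deeper, it was seen in 0.745% of 6579 cells and 0.709% of 7760. When each cell was thinned to 3000 UMIs at random, so that depth was equal, the jejunal shares were 28.4% and 72.3% and the ileal shares 0.169% and 0.277%. Thinning left out 2206 and 775 enterocyte-like cells of the jejunum and 669 and 907 of the ileum, which had fewer UMIs.

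The few ileal cells with a UMI were read for landmark genes of the regions. There were 49 and 55 of them, and all but 1 and 2 had a single Mfsd2a UMI. Their levels of Fabp6, the ileal bile acid binding protein, were 367 and 307 CPM, against 207 and 370 CPM in ileal enterocyte-like cells without Mfsd2a. Cd36, a fatty acid receptor of jejunal enterocytes, was at 2.86 and 1.13 CPM in them, on 2 and 1 UMIs, and at 3.03 and 2.57 CPM in the others. Free RNA in the droplets as a source of single UMIs was not tested.

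**Figure D1:**
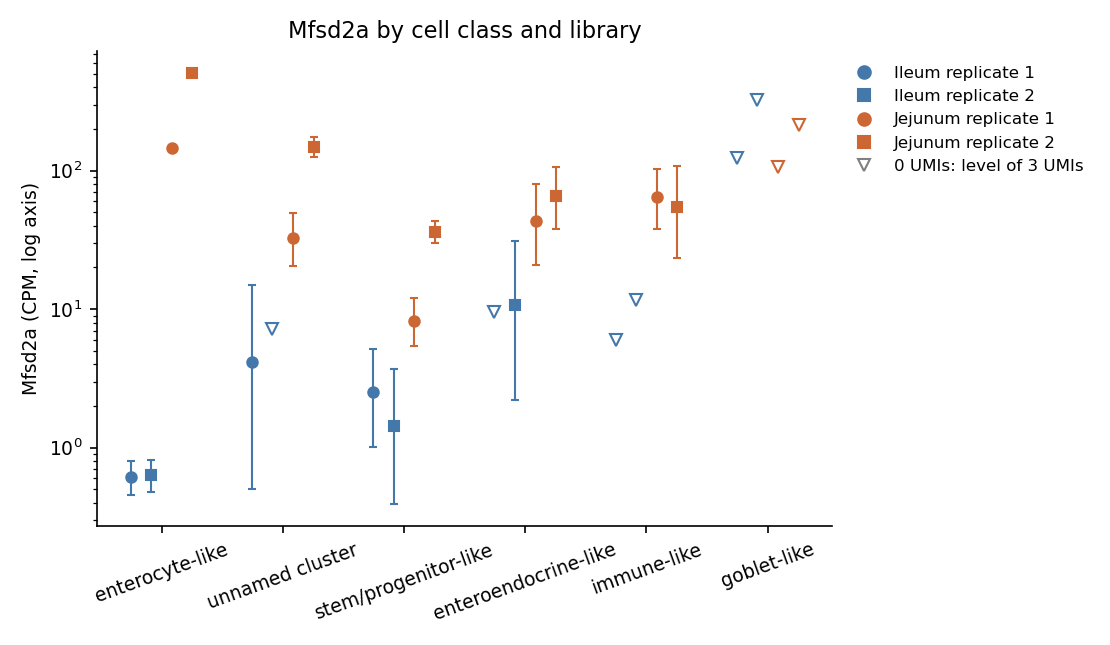
Mfsd2a in CPM on a log axis by cell class, with 1 point per library (blue, ileum; orange, jejunum; circles, replicate 1; squares, replicate 2) and exact 95% Poisson intervals as bars; open triangles stand at the level that 3 UMIs would give in classes with 0 UMIs. The jejunal enterocyte-like points, at 144.6 and 505.7 CPM, are the highest of each jejunal library, and the ileal ones, near 0.6 CPM, the lowest with a UMI.

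Among jejunal classes, Mfsd2a was highest in enterocyte-like cells, which held 99.1% and 98.6% of its UMIs in the 2 libraries. In stem/progenitor-like cells, the dividing cells of the crypt, it was at 8.26 CPM in replicate 1 and 36.3 CPM in replicate 2, on 26 and 124 UMIs. The unnamed cluster, led by Celf2 and Ccnb1ip1, lay between, at 32.6 and 148 CPM. In both libraries the order of these 3 classes was the same, and their Poisson intervals did not overlap within a library.

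The stem/progenitor-like level was low even for an enterocyte gene. UMIs of enterocyte transcripts can be found in every class in droplet data, so 20 other enterocyte genes were read in the same way. Their level in stem/progenitor-like cells, as a percentage of that in enterocyte-like cells, had medians of 11.9% in replicate 1 and 13.7% in replicate 2. For Mfsd2a it was 5.71% and 7.18%, lower than that of all but 1 of the 20 in replicate 1 and all but 2 in replicate 2. Whether these UMIs come from the cells themselves or from free RNA was not tested.

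The small classes gave wide intervals. In enteroendocrine-like cells, the hormone-secreting cells, Mfsd2a was at 43.4 and 65.9 CPM on 10 and 16 UMIs in 68 and 46 cells. In immune-like cells, of mixed markers as above, it was at 64.7 and 54.6 CPM on 17 and 8 UMIs in 37 and 26 cells. Unlike the larger classes, these did not show a clear difference between the jejunal replicates, and their Poisson intervals overlapped. Relative to enterocyte-like cells, 17 of the 20 enterocyte genes had a lower share than Mfsd2a in the enteroendocrine-like cells of replicate 1 and 5 of 20 in replicate 2. For immune-like cells these were 12 of 20 and 1 of 20. So in neither class did Mfsd2a stand apart from other enterocyte genes in both libraries. In goblet-like cells there were 0 UMIs in 9 and 6 cells, which allows up to 106 and 214 CPM.

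In the ileum Mfsd2a was low in every class, and the classes other than enterocyte-like cells had few UMIs or none. Stem/progenitor-like cells had 7 and 4 Mfsd2a UMIs, or 2.51 and 1.44 CPM, enteroendocrine-like cells 0 and 3, and immune-like cells 0 in both libraries. The jejunal stem/progenitor-like level was 3.29-fold and 25.2-fold the ileal one in the 2 mice, far less than in enterocyte-like cells.

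Mfsd2a was among the genes furthest above in jejunum replicate 2 relative to replicate 1. The level of replicate 2 was 3.50-fold that of replicate 1 in enterocyte-like cells and 4.40-fold in stem/progenitor-like cells. With 5 CPM added to both, the log2 ratio of replicate 2 to replicate 1 was 1.77 for Mfsd2a and -0.05 for the median of 6581 genes with at least 20 CPM. It was above 99.8% of these genes, and 11 genes had a larger ratio. Only this direction was ranked, and genes can differ by more the other way: Bex4, of the ileal landmark list, had a log2 ratio of -2.40. The 11 genes were Myo5a, Calb1, Eif2s3y, Mt2, Usp29, Rngtt, Cym, Dock5, Dtnbp1, Onecut2 and Cyp2d26, which were singled out after their values were seen. With 1 mouse behind each value the difference has no replicate check, and mouse, labelled sex and batch cannot be told apart in it. In the ileum, on far fewer UMIs, the ratio of replicate 2 to replicate 1 was 1.03.

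The difference between the jejunal mice ran through the whole enterocyte-like population. In the 15 enterocyte-like clusters with at least 20 cells in both libraries, replicate 2 was higher in every cluster, by 2.76-fold to 6.48-fold. Cluster levels ranged from 80.9 to 226 CPM in replicate 1 and from 332 to 715 CPM in replicate 2, so that the ranges did not overlap. Cells with a mitochondrial share under 10% gave 139 and 471 CPM, so the difference was nearly as large without the cells of high mitochondrial share.

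**Figure D2:**
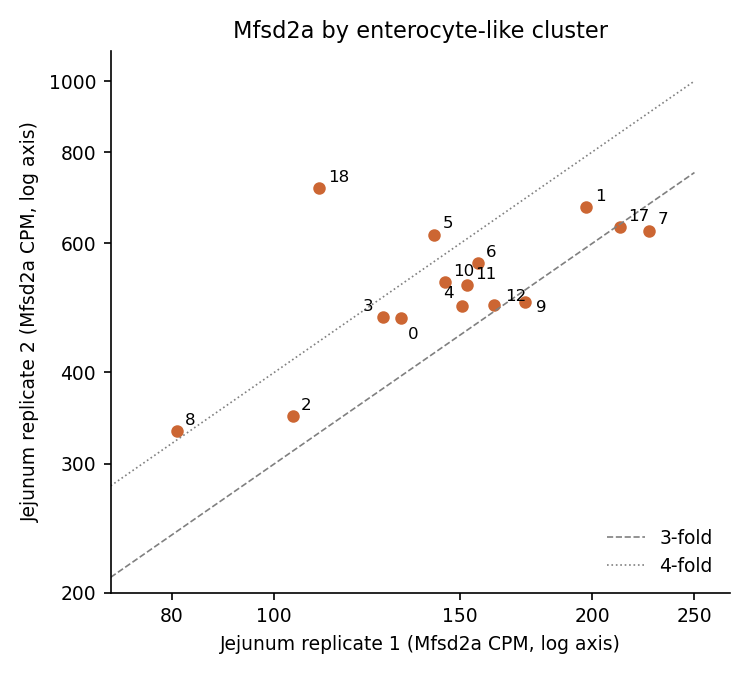
Mfsd2a in CPM in jejunum replicate 1 (x, log axis) and replicate 2 (y, log axis) for each of 15 enterocyte-like clusters, labelled by cluster number, with lines at a 3-fold and a 4-fold ratio. Most clusters lie near or between the lines, cluster 8 is the lowest in both libraries, and cluster 18 stands apart at 110 and 715 CPM.

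Within each library the clusters differed by 2.80-fold and 2.15-fold from lowest to highest, and the order was partly shared (Spearman's rho 0.56 across 15 clusters, a description over cells of the same 2 mice). Cluster 7, led by Nt5e and Trf, was at 226 and 625 CPM. Cluster 1, led by Serpina1a and Cd36, was at 198 and 672 CPM, and cluster 17, led by Celf2, at 213 and 632 CPM. All 3 were among the 4 highest clusters in replicate 2 and the 3 highest in replicate 1. The lowest were cluster 8, led by Snhg20, Aldh1a1 and Ccl25, at 80.9 and 332 CPM, and cluster 2, led by Fabp6, Bcl2l15 and Mt2, at 104 and 349 CPM. Leading genes are those of all cells of a cluster, ileal cells included, and in jejunal enterocyte-like cells as a whole Fabp6 was at 0.42 and 0.31 CPM. Nt5e is in the list of villus top genes used here and Ccl25 in that of the villus base. Clusters were made from these cells, so the differences between them were not tested. Depth moved with the clusters: median UMIs in replicate 1 were 2401 in cluster 7, 2907 in cluster 1 and 16779 in cluster 2, but 3964 in cluster 8, and the part of depth in these levels was not tested.

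From cell to cell Mfsd2a was more uneven than sampling alone would give. At 3000 UMIs a cell, the mean was 0.435 Mfsd2a UMIs in the 5929 enterocyte-like cells of replicate 1 and 1.62 in the 4128 of replicate 2. No UMI was found in 71.6% and 27.7% of the cells, where a Poisson distribution of the same mean has 64.7% and 19.9%. At the other end, 3 or more UMIs were found in cells of both libraries, up to 9 and 10. The tenth of cells with the most UMIs held 57.7% of all Mfsd2a UMIs in replicate 1 and 30.2% in replicate 2.

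The ratio of variance to mean, which is 1 for Poisson counts, was 1.65 and 1.48. Among genes whose mean was within 1.5-fold of that of Mfsd2a, the median ratio was 1.07 in replicate 1 (1360 genes) and 1.18 in replicate 2 (301 genes). Mfsd2a was above 98.9% and 86.4% of them. In both libraries it was thus above the median spread of genes of its level. Whether the cells form separate groups in Mfsd2a was not tested.

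**Figure D3:**
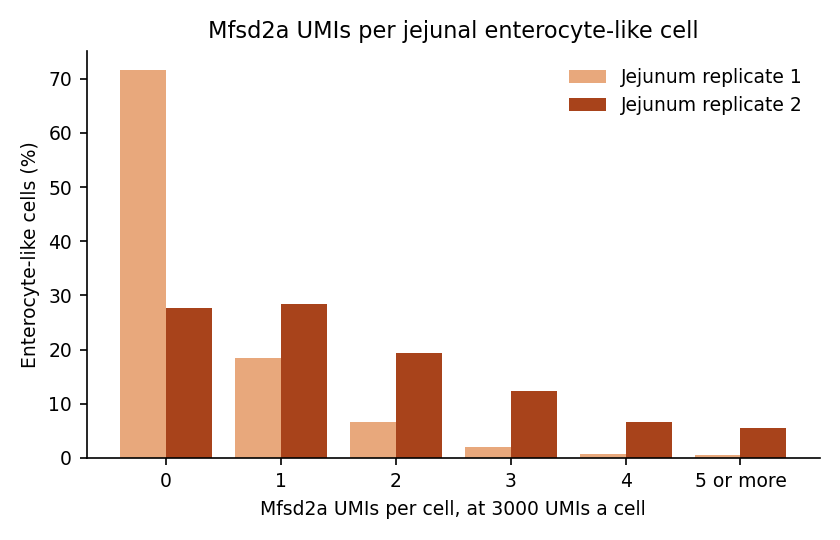
Percentage of jejunal enterocyte-like cells (y) by number of Mfsd2a UMIs per cell (x) after thinning to 3000 UMIs, with light bars for replicate 1 (5929 cells) and dark bars for replicate 2 (4128 cells). In replicate 1, 71.6% of cells have 0 UMIs; in replicate 2, 27.7% have 0 and 28.4% have 1, and 5.47% have 5 or more against 0.557% in replicate 1.

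Genes that went with Mfsd2a from cell to cell were sought in each jejunal library on its own, by Pearson's r of log2(UMIs + 1) over enterocyte-like cells at 3000 UMIs, among 4431 genes seen in at least 10% of the cells of both. These are descriptions over cells that share a library, and all coefficients were small. The part of sparse counts in their size was not tested. The 12 genes most alike by the smaller r of the libraries were Apoa4, Apoc2, Cgref1, Apoc3, Mttp, Fcgrt, Selenop, Dgat2, Apoa1, Ace, H2-K1 and Serpina1a, with r between 0.09 and 0.23. Among the 8 genes least alike were Lypd8, Cps1, Anpep, Rps12, Gpx1, Rplp1 and Rpl37a, and r over the 8 was between -0.08 and -0.15. As a reading of how well the libraries repeat each other, the 20 highest genes of replicate 1 were all positive in replicate 2, with a median r of 0.12, and the 20 highest of replicate 2 were all positive in replicate 1, with a median of 0.10. The 20 lowest of either library were all negative in the other. Over all 4431 genes, 39.0% were positive in replicate 2 and 41.5% in replicate 1. In both libraries 23.0% were positive, and 1884 genes were negative in both.

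Of the 12, 6 are genes of milk fat uptake and chylomicron assembly. Apoa4, an apolipoprotein of chylomicrons, had r of 0.20 and 0.21 in replicates 1 and 2. Apoc2, the cofactor of lipoprotein lipase, had 0.18 and 0.23, and Apoc3, its inhibitor, 0.13 and 0.20. Mttp, which loads lipid onto apolipoprotein B, had 0.14 and 0.12. Dgat2, a triglyceride-forming acyltransferase, had 0.10 and 0.12, and Apoa1, the main apolipoprotein of high-density lipoprotein, 0.10 and 0.16. The list as a whole was mixed: 14 of its 25 eligible members were positive in both libraries and 5 negative in both, and Apob, the structural apolipoprotein of the chylomicron, was at -0.03 and -0.04. All 5 genes listed here as jejunal landmarks (Paqr9, Fam13a, Cd36, Serpina1a and Fcgrt) were positive in both libraries. All but Fcgrt were named by the study, together with Mfsd2a itself, as higher in jejunal enterocytes of these libraries and in its bulk RNA data. Fcgrt was named from the bulk data. Fcgrt, the neonatal Fc receptor that carries maternal IgG across the epithelium, had 0.11 and 0.18.

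The same cells were then split by their own Mfsd2a UMIs at 3000 UMIs. In replicate 1, 587 cells had 2 or more and 4245 had 0. In replicate 2, 1812 cells had 2 or more and 1144 had 0. UMIs were summed over each group of cells and compared over both libraries with the library as a block. With the quasi-likelihood test of edgeR and Benjamini-Hochberg adjustment, 292 of 11835 genes were higher in cells with Mfsd2a (2.47%) and 279 were higher in cells without (2.36%). Without the block the test called 0 and 0 genes, with 253 at an unadjusted p under 0.05. DESeq2 with the block called 70 and 44, but gave an adjusted p to only 1281 genes. Its counts for the lists below can therefore leave out members that edgeR tested. Cells with Mfsd2a had been shallower before thinning (medians of 6480 against 6842 UMIs in replicate 1 and 6770 against 8004 in replicate 2) and had a higher mitochondrial share (5.32% against 4.58% and 10.1% against 8.16%). Markers of other cell types were read in a different split, of all enterocyte-like cells before thinning, by any Mfsd2a UMI against 0. Depth was not equal there, and a deeper cell is more likely to have a UMI. Summed goblet markers were lower in cells with a UMI, at 64.5 against 93.1 CPM and 66.2 against 93.3 CPM. So were summed Paneth markers, at 34.6 against 48.3 CPM and 24.8 against 39.9 CPM. In that split the 7 endothelial markers summed to 43.2 against 47.3 CPM in replicate 1 and 36.6 against 38.4 CPM in replicate 2. Cldn5, a tight junction gene that defines endothelium, had 0 UMIs in the enterocyte-like cells of both jejunal libraries. The p-values rest on sums of cells from 2 mice, and a very small one is no measure of the spread between mice. The part of these markers, depth and mitochondrial share in these calls was not tested; with cells under 10% mitochondrial UMIs alone, 116 and 155 genes were called.

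Genes of milk fat uptake and chylomicron assembly were among those higher in the Mfsd2a cells: 8 of 27 tested were higher and 0 lower by edgeR, and 7 and 0 by DESeq2. At an unadjusted p under 0.05 the edgeR counts were 15 and 0, against 1841 of all 11835 genes in both directions together. The median log2 difference was 0.10, near 0 over all genes. Apoc2 was at 6532 CPM in cells with and 4876 in cells without in replicate 1, and at 7332 and 5924 CPM in replicate 2. Its log2 difference was 0.42 ± 0.04 (SE; adjusted p = 7.16e-18, edgeR quasi-likelihood, Benjamini-Hochberg), and cells with exactly 1 Mfsd2a UMI lay between in both libraries. Apoa4, Apoc3, Mttp, Dgat2, Apoa1, P4hb and Cd36 were the others, by 0.16 to 0.60. P4hb is the partner subunit of Mttp. The genes most alike above were picked on these cells, so their calls here are not independent of that choice. The 5 jejunal landmark genes were all higher, by 0.25 to 0.60. Of 5 tested ileal landmark genes 0 were higher and 1 was lower by edgeR, with a median log2 difference of -0.62. At an unadjusted p under 0.05, 3 were lower, and DESeq2 called 0. Only 3 of the 5 had the same sign in both libraries.

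Other lists had fewer calls, to be read beside 2.47% higher and 2.36% lower over all 11835 genes. Of 26 tested genes of lysophospholipid handling, the pathway nearest to the transporter's substrate, 4 were higher in the Mfsd2a cells and 0 lower. Lpgat1, a lysophosphatidylglycerol acyltransferase, was at 534 against 414 CPM in replicate 1 and at 516 against 462 in replicate 2. Abhd3, a phospholipase of phosphatidylcholines, was at 436 against 365 and at 390 against 349 CPM. Gpcpd1 and Gdpd3, phosphodiesterases of glycerophospholipids, were the others, and Gdpd3 was under 10 CPM in every group. At an unadjusted p under 0.05 there were 6 higher and 0 lower, and DESeq2 called 1 and 0. Of the 38 transcription regulators tested 0 were called in either direction by edgeR or DESeq2. At an unadjusted p under 0.05, 5 were higher and 1 lower, beside 1841 of all 11835 genes in both directions together. Among 17 other members of the MFSD family 1 was called by edgeR, Mfsd12, a lysosomal cysteine transporter, at 132 against 112 and 128 against 103 CPM. For fasting and PPAR alpha response, 1 of 33 was higher (Cd36) and 2 were lower (Ucp2 and Retsat).

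Some genes of the villus base were higher in cells without Mfsd2a UMIs. Of 8 tested genes of that list 3 were, Lypd8, Nlrp6 and Ccl25, against 2.36% of all tested genes, and 0 were higher in cells with it by edgeR (1 at an unadjusted p under 0.05), while DESeq2 called 2 and 0. The other 5 were not called, and of these Mettl7b, Gsta1 and Reg3b had log2 differences of 0.17, 0.19 and 0.10. Lypd8 is also one of the genes least alike in r, picked on these same cells, so its difference is not independent of that choice. This antibacterial protein of the gut surface was at 389 CPM in cells without and 169 in cells with Mfsd2a in replicate 1, and at 304 and 144 CPM in replicate 2. Its level fell from cells at 0 to cells at 1 to cells at 2 or more in both libraries, and its log2 difference was -1.08 ± 0.07 (SE; adjusted p = 5.13e-48, edgeR quasi-likelihood, Benjamini-Hochberg). Of 13 villus top genes 2 were higher in the Mfsd2a cells, Apoa4 and Apoa1, and of 9 villus middle genes 1 was, the glucose transporter Slc2a2. Over all tested genes 2.47% were higher. Apoa4 and Apoa1 are also among the genes most alike in r, picked on these same cells, so their calls are not independent of that choice. Ribosomal protein genes, looked at after the values were seen, were mostly higher in cells without Mfsd2a: 63 of 80, with 1 the other way and a median log2 difference of -0.32.

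**Figure D4:**
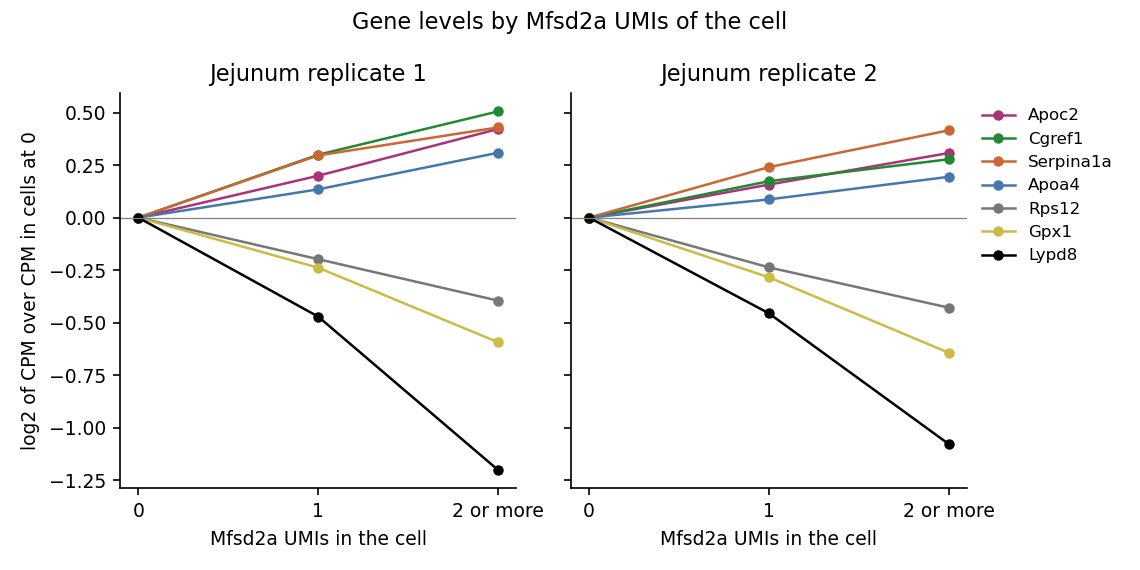
For 7 genes, the log2 ratio of the CPM in cells with 0, 1, or 2 or more Mfsd2a UMIs (x) to the CPM in cells with 0 (y), at 3000 UMIs a cell, in jejunum replicate 1 (left) and 2 (right). Apoc2, Cgref1, Serpina1a and Apoa4 step up and Rps12, Gpx1 and Lypd8 step down in both libraries; the genes were picked on these cells.

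By size of difference, the 5 genes furthest above in Mfsd2a cells among those whose higher group had a mean of at least 20 CPM over the 2 libraries were Dlg2, Mphosph9, Dpf3, Fah and Ceacam18, with log2 differences of 0.74 to 0.90. Dpf3 was higher in the Mfsd2a cells of replicate 1 only, at 52.3 against 21.6 CPM, and was at 13.8 against 17.2 CPM in replicate 2. It was called all the same (adjusted p = 1.09e-04, edgeR quasi-likelihood, Benjamini-Hochberg). The 5 furthest below were Myo16, Krt19, Fgf15, Cldn15 and Aldh1a7, with log2 differences of -1.19 to -1.64, and all 5 were lower in both libraries. Fgf15, the hormone that enterocytes release in response to bile acids, was at 39.2 CPM in cells with and 107 in cells without in replicate 1, and at 19.0 and 46.9 CPM in replicate 2. Krt19, a keratin of crypt and lower villus, was at 10.2 against 29.4 CPM and at 28.5 against 82.2 CPM. For Fgf15 the log2 difference was -1.33 ± 0.13 and for Krt19 -1.47 ± 0.14 (SE).

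The other genes of the transporter's pathways were then compared between ileum and jejunum in the enterocyte-like sums of the 4 libraries, with Mfsd2a left out of the fit. The quasi-likelihood test of edgeR with Benjamini-Hochberg adjustment called 763 of 19667 genes higher in the ileum (3.88%) and 553 higher in the jejunum (2.81%). At an unadjusted p under 0.05 it had 5605 genes, both directions together, which is the background for such counts below. With the mouse as a block, as both segments came from the same mouse, it called 1695 (8.62%) and 1358 (6.90%). In the 7 pathway lists together 198 genes were tested, of which 15 were higher in ileum and 32 in jejunum, or 28 and 56 with the block. The median log2 difference over all genes was -0.01. Depth and mitochondrial share differed between the regions as given above, and with sums thinned to equal depth the counts were 822 and 600, and with cells under 10% mitochondrial UMIs 740 and 537. Each library weighed on these counts: leaving out ileum replicate 1, ileum replicate 2, jejunum replicate 1 or jejunum replicate 2 gave 161, 387, 705 or 255 genes higher in the ileum and 103, 297, 760 or 278 higher in the jejunum.

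Lysophospholipid handling was split between the regions. By edgeR, 2 of 36 tested genes had a higher level in ileum and 4 in jejunum, or 5 and 7 with the mouse as a block. Abhd3 was at 24.2 and 34.9 CPM in ileum and at 378 and 393 CPM in the jejunum, with no overlap between the regions, a log2 difference of ileum minus jejunum of -3.81 ± 0.25 (SE) and an adjusted p of 0.0164 (edgeR quasi-likelihood, Benjamini-Hochberg). Lpgat1 was at 157 and 172 CPM in ileum and at 446 and 518 CPM in the jejunum. Agpat1 and Agpat3, which acylate lysophosphatidic acid, were also higher in the jejunum, by 0.86 and 1.26 on the log2 scale. Pla2g15, the lysosomal phospholipase A2, was the other way, at 15.0 and 14.4 CPM in ileum and at 5.21 and 6.55 CPM in the jejunum, as was Lpcat1, at under 4 CPM in all libraries. Lpcat3, which turns lysophosphatidylcholine into phosphatidylcholine in enterocytes, was at 253 and 266 CPM in ileum and at 288 and 420 CPM in the jejunum, and was not called (adjusted p = 0.18, edgeR quasi-likelihood).

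Most other family members were not called between the regions. Of 17 other MFSD genes 2 were higher in ileum and 0 in jejunum by edgeR (8 and 2 at an unadjusted p under 0.05), or 4 and 2 with the block and 4 and 2 by DESeq2. Mfsd2b, its nearest relative and an exporter of sphingosine-1-phosphate in blood cells, was at 2.40 and 1.57 CPM in ileum and at 2.31 and 1.93 CPM in the jejunum, with overlapping libraries. Mfsd1, a lysosomal dipeptide transporter, was at 212 and 208 CPM in ileum and at 93.5 and 88.3 CPM in the jejunum. The members higher in the jejunum with the block were Mfsd6l and Mfsd13b, by less than 1 on the log2 scale.

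In the lists of milk fat uptake and of the fasting response nearly all called genes were higher in the jejunum, as Mfsd2a was. Of 27 genes of fat uptake and chylomicron assembly 10 were higher in the jejunum and 0 in the ileum, or 17 and 1 with the block and 18 and 1 by DESeq2, with a median log2 difference of -0.57. At an unadjusted p under 0.05 these were 19 and 1, against 5605 of all 19667 genes in both directions together. Cd36 was at 3.03 and 2.55 CPM in ileum and at 155 and 172 CPM in the jejunum, a log2 difference of -6.00 ± 0.18 (SE; adjusted p = 0.00318, edgeR quasi-likelihood, Benjamini-Hochberg), and the study chose it as a jejunal landmark with these libraries. Apoc2 was at 705 and 835 CPM in ileum and at 4837 and 6206 CPM in the jejunum. The regions did not overlap in either gene.

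Of 35 genes of the fasting and PPAR alpha response 9 were higher in the jejunum and 0 in the ileum, or 22 and 0 with the block, 20 and 0 by DESeq2, and 22 and 0 at an unadjusted p under 0.05, with a median log2 difference of -0.82. Among them were Cpt2, Ehhadh, Cyp4a10, Acot1, Cd36, Pck1, Cidec and Retsat. Pck1, an enzyme of gluconeogenesis, was at 357 and 522 CPM in ileum and at 1352 and 1598 CPM in the jejunum. Ppara itself, which encodes PPAR alpha, was at 14.2 and 13.6 CPM in ileum and at 13.0 and 14.1 CPM in the jejunum, and the regions overlapped (log2 difference -0.08 ± 0.15, SE).

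Long-chain fatty acid synthesis and activation was split. Of 27 genes tested 6 were higher in the ileum, namely Fads1, Fads2, Scd2, Fabp5, Fasn and Acaca, and 3 in the jejunum, namely Elovl2, Acsl5 and Slc27a2. Fads2, the delta-6 desaturase of docosahexaenoic acid synthesis, was at 63.1 and 69.2 CPM in ileum and at 23.7 and 18.7 CPM in the jejunum. Scd2, a stearoyl-CoA desaturase, was at 327 and 133 CPM in ileum and at 0.386 and 0.144 CPM in the jejunum.

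Of 28 genes of caveolae and transcytosis, 5 were higher in the jejunum, among them Fcgrt at 4278 and 4079 CPM against 1008 and 1137 CPM in the ileum, and 2 were higher in the ileum, Dab2 and Lrp2, receptors and adaptors of protein uptake. Cav1, the main caveolin of endothelium, was under 0.4 CPM in every library. Of 39 transcription regulators 3 were higher in the jejunum, Gata4, Onecut2 and Ppargc1b, and 3 in the ileum, Srebf2, Insig1 and Foxa1. Gata4, which sets jejunal identity, was at 32.8 and 51.4 CPM in ileum and at 113 and 105 CPM in the jejunum. Onecut2 was at 0.964 and 0.888 CPM in ileum and, like Mfsd2a, differed between the jejunal mice, at 15.3 and 75.4 CPM.

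**Figure D5:**
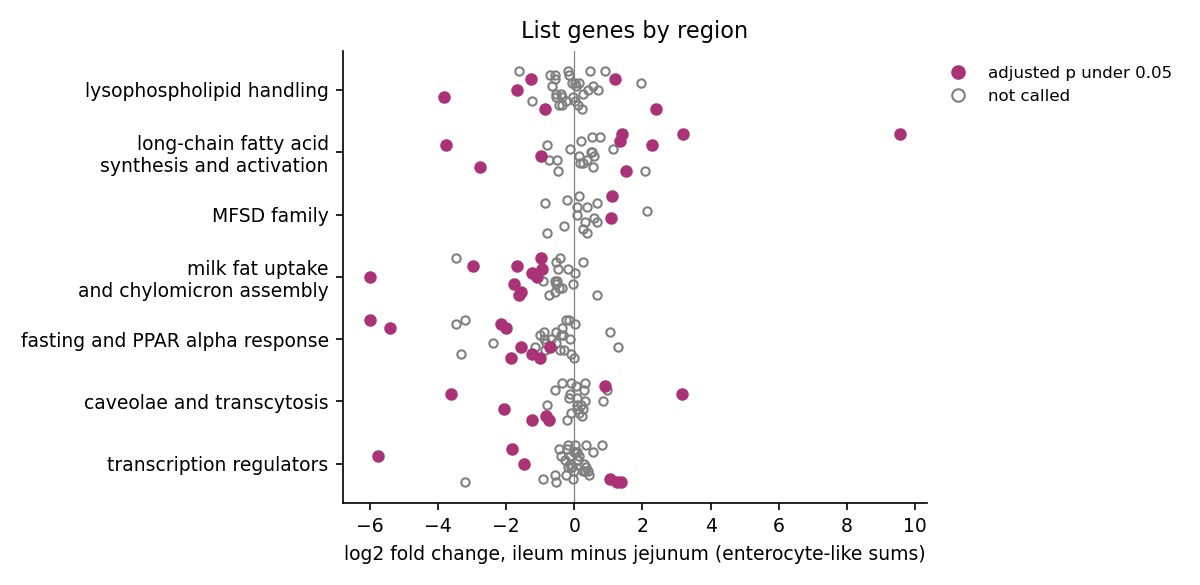
Log2 fold change of ileum minus jejunum (x) in enterocyte-like sums for the tested genes of 7 lists (y, points spread vertically to be visible), with filled points for an adjusted p under 0.05 and open points for genes not called. Called genes of milk fat uptake (10) and of the fasting and PPAR alpha response (9) all lie left of 0, on the jejunal side.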

How the data were processed

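Single-cell libraries of jejunum and ileum from 2 mice at postnatal day 6 were read as 4 matrices of deposited UMI counts. The authors made 3′ PIPseq libraries and counted them with PIPseeker at sensitivity level 3; the submitters' processing notes name the build GRCm39, and the annotation is not given in the sources used here. UMIs were counted, so PCR copies were collapsed. Reads shared by near-identical genes, such as the Serpina1 genes, can be assigned to the wrong copy.

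The study's limits were applied: a gene had to occur in 3 cells or more, and a cell had to have over 1000 and under 6000 genes and under 20% mitochondrial UMIs, which kept 30521 of 36202 cells. No doublet caller was run. Seurat 5.3.0 in R 4.3.3 took 2000 variable genes without Mfsd2a, integrated the libraries by canonical correlation and gave 23 clusters from 30 components (resolution 1). A class other than enterocyte needed 3 markers seen in 10% of a cluster's cells and 1 log2 unit above the rest. At least 1 of its markers also had to be among the cluster's 10 leading genes. Where more than 1 class passed, the one with most markers among the leading genes was taken. An enterocyte-like cluster needed 3 markers in 50% of its cells, a mean log2 above -1 and no other class with 3 markers. Both rules were chosen with the data in view.

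UMIs were summed per library and class. Sums were tested with edgeR 4.0.16 (filterByExpr, TMM, quasi-likelihood, adjusted p under 0.05), with region as the only term, or with the library as a block for cells split by Mfsd2a. The 2 sums per library of the split share a mouse, so these p-values rest on 2 mice and are no measure of the spread between mice. DESeq2 1.42.0, no filter, other scaling, thinning to 2000 UMIs and leaving out libraries were tried. Both segments came from the same mouse by the titles and design. Deviations from the region means correlated at r = 0.42 over genes between same-numbered libraries, so the mouse was also used as a block. In simulated data with 200 genes changed by 2 on the log2 scale, at a fixed dispersion, the region fit recovered 100% with 5 false calls. The split fit recovered 98% with 6 false calls. Smaller changes, such as those of the chylomicron genes in the split, were not simulated, so the check does not cover them. Python 3.11.15, numpy 2.4.6, scipy 1.17.1 and pandas 2.3.3 were used.

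Mfsd2a, the gene lists and the tests were chosen with earlier results of these data known. Genes are named if they are list members, if they are the 12 most and 8 least alike in r, or if they are the 5 highest and 5 lowest called by the split at 20 CPM or more. Intervals and floors of 3 UMIs cover counting error only. Some genes of the lists are not reported here by name.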

Additional observations from a re-analysis of the deposited data

How the results depend on the processing

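Under all alternatives tried for the level of Mfsd2a, the jejunal libraries stayed far above the ileal ones. The mean in ileal enterocyte-like cells was 0.768 CPM when cells were thinned to 3000 UMIs, and the ileal share of cells with a UMI was 0.727% without thinning and 0.118% at 2000 UMIs. Leaving out jejunum replicate 1 or 2 gave the level of the other library, from 145 to 506 CPM, and leaving out an ileal replicate gave 0.615 to 0.636 CPM. The shares at 3000 UMIs ranged likewise from 28.4% to 72.3% and from 0.169% to 0.277%. The ratio of variance to mean averaged 1.42 at 2000 UMIs and, without either replicate, 1.48 to 1.65. All 20 genes named for likeness kept their sign in both libraries under the 4 alternatives, and 8 to 11 of the 12 most alike stayed among the 12.

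No test could be had for the split with 1 library left out, since no residual degree of freedom remains. The split by Mfsd2a UMIs depended on the pairing of sums within a library: with no replicate block it called 0 and 0 genes, and 0 and 0 of the pathway lists, against 292 and 279, and 16 and 4. At 2000 UMIs it called 181 and 151 (2 list genes higher in cells without), and under 10% mitochondrial UMIs 116 and 155 (10 and 2). With DESeq2 it called 70 and 44 (10 and 0) of 1281 genes with an adjusted p, and with no filter 69 and 159 (4 and 2). The region test with the replicate block called 1695 and 1358 (28 and 56 of the lists), DESeq2 1723 and 1331 (29 and 58), and no filter 333 higher in the jejunum. Leaving out 1 library gave 161 to 705 higher in the ileum and 103 to 760 in the jejunum, and 2 to 15 and 12 to 39 list genes; ileum replicate 1 took away the most. Fewer samples or genes entered the left-out and filtered fits; other causes were not tested.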

Other observations

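Mfsd2a was also read in the called cells that the limits on genes and mitochondrial share left out. In jejunum replicate 1 it was at 96.2 CPM in the 135 cells with too many genes, at 214 CPM in the 341 with too few and at 160 CPM in the 528 over the mitochondrial limit. In jejunum replicate 2 it was at 363, 637 and 529 CPM in 252, 96 and 1469 such cells. In both jejunal libraries the order was therefore the same, lowest in the cells with most genes and highest in those with fewest, and replicate 2 was the higher in each. In the ileum, where 1643 and 1121 cells had too many genes, these had 26 and 12 Mfsd2a UMIs, or 0.587 and 0.401 CPM.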
